A study of Mus musculus with 12 samples.

Results

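DNA repair genes were examined in the hippocampus of mice that lack *Dek*, which encodes a chromatin-binding protein with a known part in genome stability. The 37 genes, of 26409 in the table, were chosen by symbol and grouped by repair pathway: 6 genes of end joining, 13 of base excision and single-strand break repair, 7 of homologous recombination, 1 of mismatch repair, 5 of nucleotide excision repair and 5 of damage signalling. Their symbols were matched by Ensembl identifier to GENCODE release M21 of build GRCm38. All 37 were listed, and all 37 reached the level needed for testing, 0.1 TPM on average across the 12 libraries, although *Neil1* did so through 1 library. TPM is a level, the share of a transcript among all transcripts, corrected for transcript length and scaled within each library, so levels can be set beside each other between genes.

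Neurons in the adult brain no longer divide, yet their DNA is damaged throughout life by oxidation, by loss of bases and by strand breaks that arise during transcription. Base excision repair and the closely linked repair of single-strand breaks remove most small lesions, end joining closes breaks of both strands without a template, and nucleotide excision repair takes out bulky lesions. Homologous recombination and mismatch repair serve mainly cells that copy their DNA, and inherited defects in several of these pathways cause degeneration of the nervous system.

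Total RNA from microdissected hippocampus of 12 mice gave 12 libraries, 3 for each combination of sex (female or male) and genotype (WT or *Dek* cKO). The mice were adults of 6 to 12 months that had been through behavioural assays. The *Dek* cKO mice came from floxed mice with loxP sites around exons 3 and 4 of *Dek*, crossed with CMV-Cre mice of the C57Bl/6 background. The deletion passed through the germline, the Cre transgene was then bred out, and matings of heterozygotes kept the line, so the deletion is present in every cell type. The names of all 3 female WT libraries begin with C57 and those of the other 9 with CMV, so in comparisons with female WT mice the name prefix and the group cannot be told apart.

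*Dek* itself ranged from 44.2 to 51.9 TPM in WT libraries (median 48.8, n = 6) and from 5.55 to 9.25 TPM in *Dek* cKO libraries (median 6.99, n = 6). The genotypes did not overlap, and *Dek* was lower by a log2 fold change of -2.74 (95% interval -2.96 to -2.52, limma adjusted p = 1.17e-08). Markers of the labelled tissue were present in all libraries: 7 neuronal genes summed to between 4731 and 5448 TPM with *Snap25* the most abundant, 5 genes of CA1 and CA3 pyramidal neurons to between 238 and 334 TPM with *Neurod6* highest, and 4 of dentate granule cells to between 127 and 208 TPM with *C1ql2* highest. Sex labels were checked with Y-linked *Eif2s3y*, *Ddx3y*, *Kdm5d* and *Uty*, which summed to 108 TPM in the library labelled female *Dek* cKO replicate 3 and to 0.642 TPM in that labelled male *Dek* cKO replicate 1. Male WT libraries summed to between 109.6 and 125.5 TPM, and female WT libraries to between 0.613 and 1.77 TPM. The first of these libraries thus went against its sex label in all 4 genes, while the second fell under 10% of the lowest male WT value for 3 of 4 genes, its *Kdm5d* of 0.436 TPM lying just above that limit. Both stayed where their labels place them, and the counts of repair genes and their log2 fold changes over both sexes were also computed without them.

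The repair genes covered a wide span of levels, while their sum varied little between libraries. Summed over the 37 genes, the level lay between 668 and 694 TPM in WT libraries and between 672 and 710 TPM in *Dek* cKO libraries, the highest in male *Dek* cKO replicate 3. *Trp53bp1* was the most abundant at a mean of 84.6 TPM over the 12 libraries, followed by *Polb* (60.9 TPM), *Apex1* (56.1 TPM), *Pcna* (49.5 TPM) and *Parp1* (46.6 TPM). In all, 32 genes had a mean of at least 2 TPM. The other 5 were *Ung* (1.90 TPM), *Rbbp8* (1.14 TPM), *Brca1* (0.353 TPM), *Brca2* (0.212 TPM) and *Neil1*, so that 3 genes of homologous recombination stood at the low end. *Ercc3* had the smallest coefficient of variation over the 12 libraries, 4.13%, and among genes of at least 2 TPM *Atm* had the largest, 25.0%. Of the rarer genes *Brca1* had 31.4%, *Rbbp8* 42.7% and *Ung* 58.2%. In a bulk sample, fewer cells of a type and less RNA per cell cannot be told apart.

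**Figure D1:**
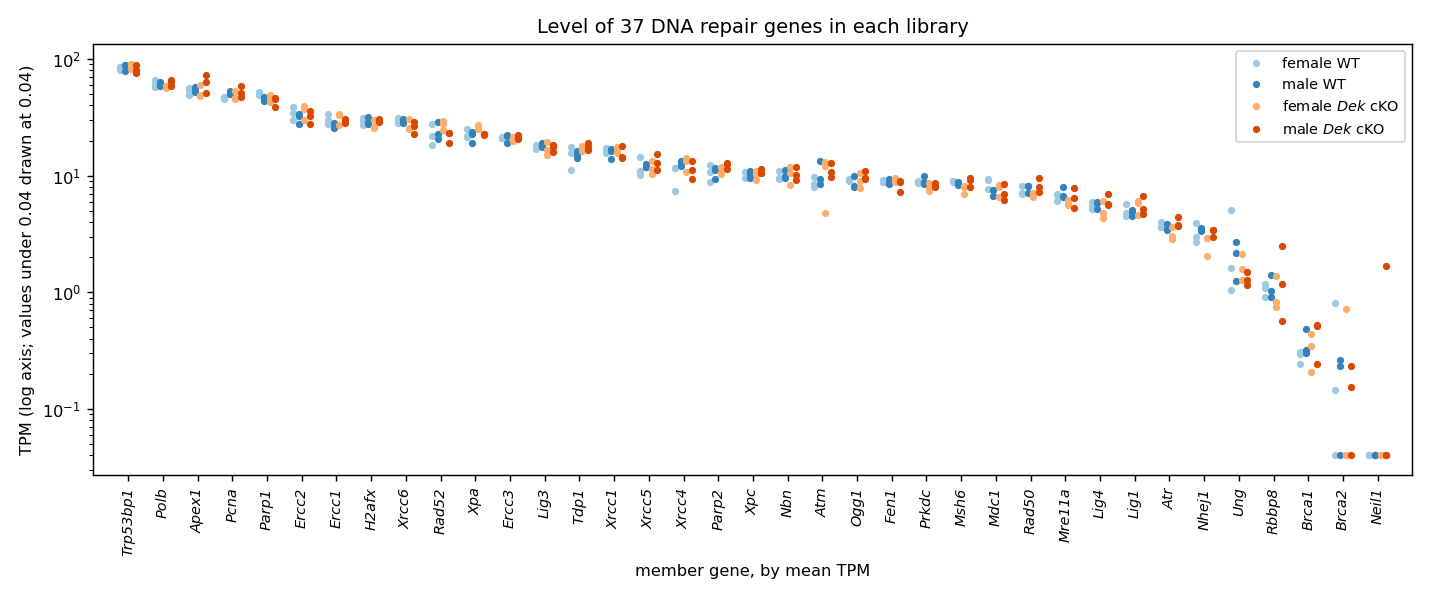
TPM of each of the 37 DNA repair genes (log axis) in the 12 hippocampal libraries, ordered by mean level, with points coloured by group (3 libraries each of female WT, male WT, female *Dek* cKO and male *Dek* cKO) and values under 0.04 TPM drawn at 0.04. The groups lie on each other for nearly all genes, from *Trp53bp1* at a mean of 84.6 TPM to *Neil1*, which is above 0 in 1 library.

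When all *Dek* cKO mice were compared with all WT mice, no repair gene was called. To be called, a gene needed an adjusted p under 0.05 and a change of more than 1.2-fold, which 27 of 18197 genes passed (0.148%). At an unadjusted p under 0.05 stood 3 of 37 repair genes, or 8.11%, beside 6.64% of all genes tested. *Tdp1* was on the higher side, where 4.84% of all genes stood, and *Xrcc6* and *Prkdc* were on the lower side, where 1.8% stood. The count of 3 rested on few libraries: it was 0 without female WT replicate 1 or without male WT replicate 3, and 1 without female WT replicate 2, male WT replicate 2, female *Dek* cKO replicate 1, male *Dek* cKO replicate 1 or male *Dek* cKO replicate 2. With sex as a covariate it was 1, *Tdp1*.

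No repair gene had 6 *Dek* cKO values that all lay above or all below the 6 WT values, against 0.676% of all genes tested. The median log2 fold change of the 37 genes was -0.01, and that of all genes tested was 0.02. Estimates lay above 0 for 17 repair genes and below 0 for 20, beside 10156 and 8041 of 18197 genes tested. The 17 include *Neil1*, whose sign rests on 1 library. For 32 of the 37, the 95% interval lay inside a change of 1.5-fold in either direction, as it did for 65.1% of all genes tested. The exceptions were the 5 genes of the lowest level, *Ung*, *Rbbp8*, *Brca1*, *Brca2* and *Neil1*, so these libraries limit the size of a difference well for the abundant repair genes and poorly for the rare ones.

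**Figure D2:**
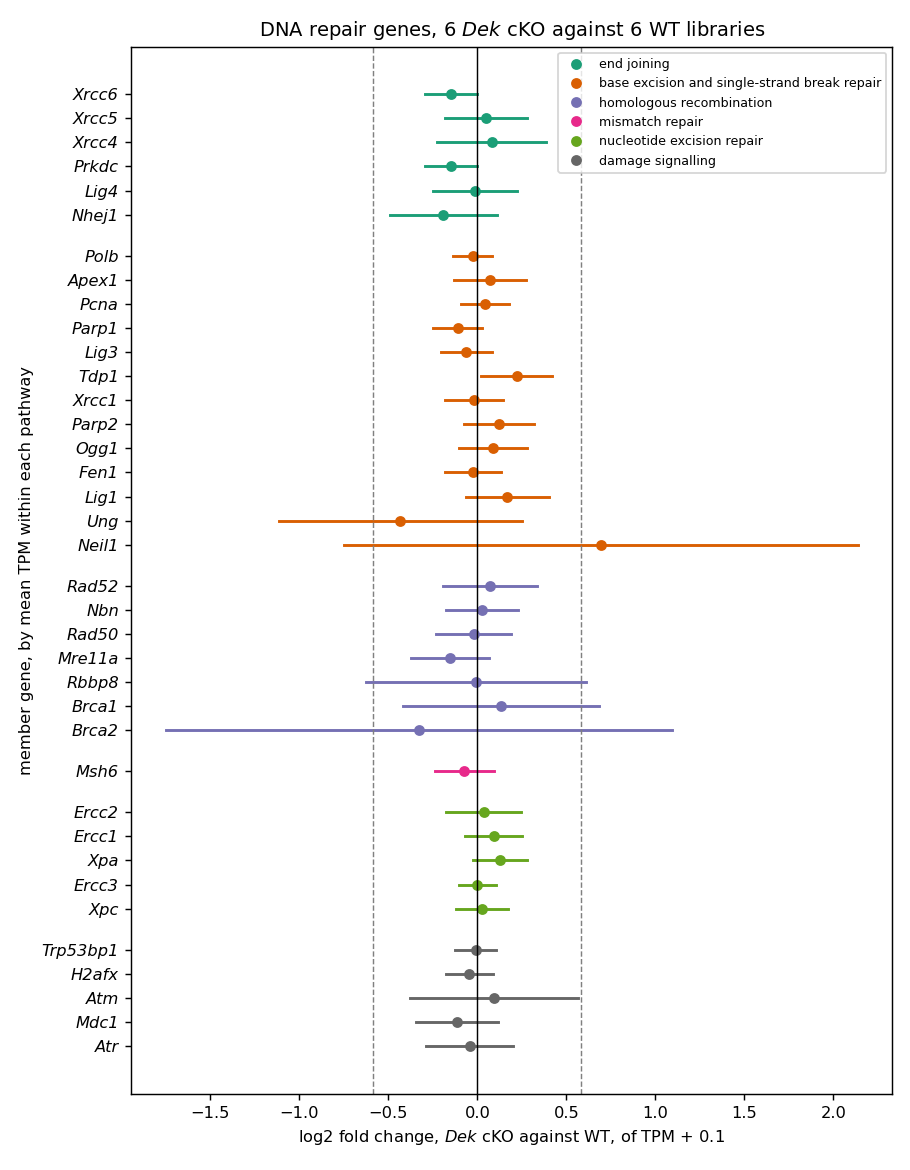
Log2 fold change of TPM + 0.1 (points) with its 95% interval (lines) for the 37 DNA repair genes, 6 *Dek* cKO against 6 WT libraries, coloured by pathway and ordered within it by mean TPM; dashed lines mark a change of 1.5-fold. The intervals of 32 genes lie between the dashed lines, and those of *Xrcc6*, *Prkdc* and *Tdp1* leave out 0.

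End joining begins when the Ku heterodimer, encoded by *Xrcc6* and *Xrcc5*, binds a broken end and recruits the catalytic subunit of the DNA-dependent protein kinase, the product of *Prkdc*. *Xrcc6* (chromosome 15, 81987835 to 82040085) was the most abundant gene of the pathway. Its level in WT libraries was 28.2 TPM at the lowest, 29.1 TPM at the median and 31.1 TPM at the highest (n = 6). In *Dek* cKO libraries it was 22.8 TPM at the lowest, 26.4 TPM at the median and 30.8 TPM at the highest (n = 6). The 4 lowest of the 12 values came from *Dek* cKO libraries, the lowest from male replicate 1. Female *Dek* cKO replicate 2 and male *Dek* cKO replicate 3 lay within the WT range. This gave a log2 fold change of -0.15 (95% interval -0.29 to -0.00099), with an unadjusted p of 0.0487 and a limma adjusted p of 0.746. Without female *Dek* cKO replicate 3 and male *Dek* cKO replicate 1, the libraries with unexpected Y-linked levels, the log2 fold change was -0.08 (limma unadjusted p = 0.227).

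*Prkdc* (chromosome 16, 15637866 to 15842235) was less abundant. WT libraries held 8.57 TPM at the lowest, 8.80 TPM at the median and 10.02 TPM at the highest (n = 6), and *Dek* cKO libraries 7.42, 8.05 and 8.72 TPM (n = 6). All 6 *Dek* cKO values were under the WT median, but the highest of them, in female replicate 3, and that of male replicate 2 exceeded the lowest WT value. The log2 fold change was -0.15 (95% interval -0.29 to -0.0021), with an unadjusted p of 0.0473 and a limma adjusted p of 0.746.

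The rest of the pathway joins the ends. *Xrcc5*, the other Ku subunit, had between 10.2 and 15.4 TPM and a log2 fold change of 0.05 (95% interval -0.18 to 0.28). The estimates for the Ku partners thus had opposite signs over both sexes. That of *Xrcc5* was not stable, at -0.015 without male *Dek* cKO replicate 3 and -0.009 in females. *Lig4*, the ligase of the pathway, and *Xrcc4*, its cofactor, had log2 fold changes of -0.01 (95% interval -0.25 to 0.22) and 0.08 (95% interval -0.23 to 0.39). *Xrcc4* is the only repair gene here on chromosome 13, which also carries *Dek*. *Nhej1*, which bridges the ends beside *Xrcc4*, was the least abundant gene of the group. It had 2.69 TPM at the lowest, 3.45 TPM at the median and 3.92 TPM at the highest in WT libraries (n = 6), against 2.04, 2.94 and 3.40 TPM in *Dek* cKO libraries (n = 6). No *Dek* cKO value was above the WT median, the groups overlapped over most of their range, and the log2 fold change was -0.19 (95% interval -0.49 to 0.11, limma adjusted p = 0.883). It was -0.09 without female *Dek* cKO replicate 1, the lowest library. Summed over the 6 genes, end joining was at 66.7 to 73.5 TPM in WT and 59.9 to 76.2 TPM in *Dek* cKO libraries, with male *Dek* cKO replicate 1 the lowest and male *Dek* cKO replicate 3 the highest of the 12.

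**Figure D3:**
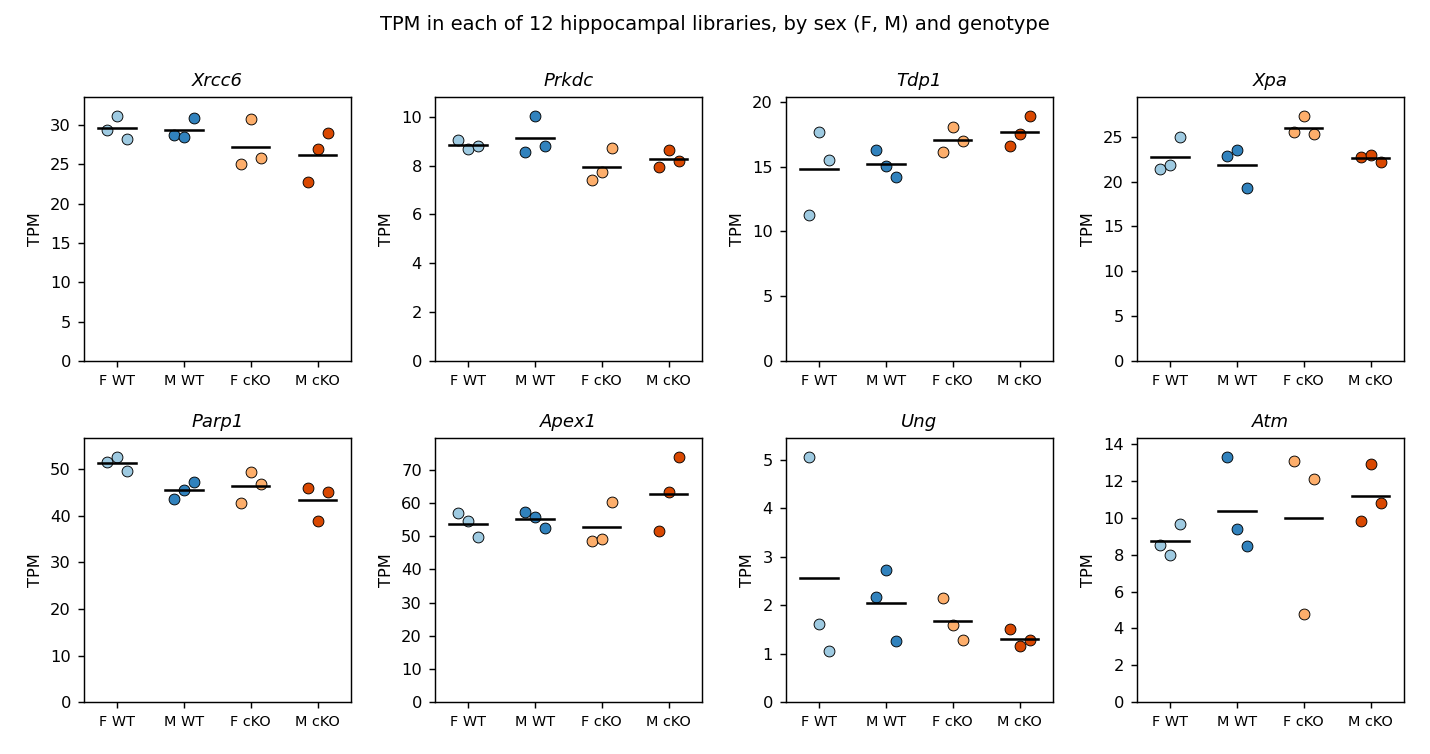
TPM of *Xrcc6*, *Prkdc*, *Tdp1*, *Xpa*, *Parp1*, *Apex1*, *Ung* and *Atm* in each of the 12 libraries (points; F, female; M, male) with the mean of each group of 3 as a bar; each axis starts at 0. The genotypes overlap in every panel, and female WT replicate 1 has the highest *Ung* (5.04 TPM) and the lowest *Tdp1* (11.3 TPM).

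Base excision repair starts with glycosylases that cut out a damaged base, after which an endonuclease, a polymerase and a ligase restore the strand. Among these genes *Tdp1*, whose enzyme frees DNA ends from trapped topoisomerase, stood at an unadjusted p under 0.05. *Tdp1* (chromosome 12, 99884517 to 99955219) had 11.3 TPM at the lowest, 15.3 TPM at the median and 17.7 TPM at the highest in WT libraries (n = 6). In *Dek* cKO libraries it had 16.1 TPM at the lowest, 17.2 TPM at the median and 18.9 TPM at the highest (n = 6). All 6 *Dek* cKO values exceeded the WT median, and female WT replicates 1 and 2 held the lowest and the highest WT value. The log2 fold change was 0.22 (95% interval 0.02 to 0.42), with an unadjusted p of 0.0335 and a limma adjusted p of 0.698. It was 0.14 without female WT replicate 1, and 0.19 (95% interval 0.03 to 0.35) when the 6 *Dek* cKO libraries were compared with the 3 male WT libraries, which share their name prefix. In that comparison 2 of 37 repair genes, *Tdp1* and *Ercc1*, stood at an unadjusted p under 0.05, beside 5.12% of all genes tested, and 0 were called, beside 0.055%.

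*Polb*, the polymerase that fills the gap, was the most abundant gene of the pathway. Its levels were 57.4 TPM at the lowest, 61.2 TPM at the median and 66.3 TPM at the highest in WT libraries (n = 6), and 56.2, 58.5 and 66.5 TPM in *Dek* cKO libraries (n = 6). The groups spanned nearly the same range, with a log2 fold change of -0.03 (95% interval -0.13 to 0.08, limma adjusted p = 0.974). *Apex1*, the endonuclease that cuts at lost bases, was singled out after its values were seen and had a log2 fold change of 0.07 (95% interval -0.13 to 0.27). Its *Dek* cKO values spread widely, from 48.5 TPM in female replicate 1 to 63.3 and 73.6 TPM in male replicates 2 and 3. The 6 WT values stayed between 49.7 and 57.4 TPM. Without male *Dek* cKO replicate 3, the log2 fold change of *Apex1* was -0.004.

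Strand breaks are sensed by the enzymes of *Parp1* and *Parp2*, which modify proteins at the break, and are closed by the ligase of *Lig3* on the scaffold made by *Xrcc1*. *Parp1*, singled out after its values were seen, had 51.6, 52.5 and 49.7 TPM in the female WT libraries, above its level in each of the other 9. It had 43.6 to 47.2 TPM in male WT, 42.8 to 49.4 TPM in female *Dek* cKO and 38.8 to 46.0 TPM in male *Dek* cKO libraries. The log2 fold change was -0.11 (95% interval -0.25 to 0.03, limma adjusted p = 0.841) over all libraries and -0.02 (95% interval -0.19 to 0.14) among those whose names begin with CMV. Leaving out the C57 libraries removes every female WT library, so sex and name prefix cannot be told apart there. *Parp2* lay between 8.91 and 12.9 TPM with a log2 fold change of 0.12 (95% interval -0.08 to 0.32). *Xrcc1* lay between 14.0 and 17.8 TPM with -0.02 (95% interval -0.18 to 0.14). *Lig3* lay between 15.1 and 19.6 TPM with -0.06 (95% interval -0.20 to 0.08). Without female *Dek* cKO replicate 3 and male *Dek* cKO replicate 1, *Lig3* had -0.13 (limma unadjusted p = 0.0430).

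Damaged bases are removed by the glycosylases of *Ogg1*, which acts on oxidised guanine, *Ung*, which acts on uracil, and *Neil1*, which acts on oxidised pyrimidines. *Ogg1* lay between 7.90 and 11.02 TPM, with a log2 fold change of 0.09 (95% interval -0.10 to 0.28). *Ung*, also singled out after its values were seen, had 5.04, 1.605 and 1.05 TPM in female WT, 2.17, 2.73 and 1.26 TPM in male WT, 2.15, 1.599 and 1.28 TPM in female *Dek* cKO and 1.51, 1.15 and 1.28 TPM in male *Dek* cKO libraries. Female WT replicate 1 stood above all other libraries, and the remaining values of the genotypes overlapped. This left a log2 fold change of -0.43 (95% interval -1.11 to 0.25, limma adjusted p = 0.883), and -0.17 without that library. *Neil1* was listed at 0 in 11 libraries and at 1.70 TPM in male *Dek* cKO replicate 1, so no fold change is given.

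Repair that runs through longer patches uses proteins of DNA replication. *Pcna*, the sliding clamp, lay between 45.4 and 58.3 TPM with a log2 fold change of 0.04 (95% interval -0.09 to 0.18), and its highest value was in male *Dek* cKO replicate 3. *Fen1*, which trims flaps of displaced DNA, lay between 7.31 and 9.50 TPM with -0.02 (95% interval -0.18 to 0.13). *Lig1*, the ligase of replication, lay between 4.49 and 6.76 TPM with 0.17 (95% interval -0.06 to 0.40).

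Homologous recombination opens with trimming of the broken ends by the complex of *Mre11a*, *Rad50* and *Nbn*, helped by the product of *Rbbp8*. *Rad52*, whose protein anneals single strands, was the most abundant gene of the pathway. It had 18.4 TPM at the lowest, 22.4 TPM at the median and 28.8 TPM at the highest in WT libraries (n = 6), and 19.0, 24.0 and 29.3 TPM in *Dek* cKO libraries (n = 6). The ranges were nearly the same, with the lowest value in female WT replicate 1, and the log2 fold change was 0.07 (95% interval -0.19 to 0.34, limma adjusted p = 0.968). *Mre11a* lay between 5.29 and 8.07 TPM with a log2 fold change of -0.15 (95% interval -0.37 to 0.07). Without male *Dek* cKO replicate 3, *Mre11a* had -0.22 (limma unadjusted p = 0.0236). Without female *Dek* cKO replicate 3 and male *Dek* cKO replicate 1, *Mre11a* had -0.07. Its partners *Rad50* and *Nbn* lay between 6.63 and 9.55 TPM and between 8.32 and 11.9 TPM, with -0.02 (95% interval -0.23 to 0.19) and 0.03 (95% interval -0.18 to 0.23).

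The rarer genes of the pathway gave wide intervals. *Rbbp8*, chosen after its values were seen, had 0.910 to 1.403 TPM in WT and 0.564 to 2.48 TPM in *Dek* cKO libraries, the extremes of all 12 being male *Dek* cKO replicates 1 and 3. Its log2 fold change was -0.01 (95% interval -0.63 to 0.61). *Brca1*, which promotes the choice of recombination over end joining, had 0.244 to 0.489 TPM in WT and 0.206 to 0.522 TPM in *Dek* cKO libraries, with 0.13 (95% interval -0.42 to 0.68). *Brca2*, whose protein loads the recombinase onto DNA, was the least abundant. It stood at 0.00170, 0.144 and 0.804 TPM in female WT libraries and at 0, 0.261 and 0.233 TPM in male WT libraries. It stood at 0, 1.47e-10 and 0.716 TPM in female *Dek* cKO libraries and at 0.154, 0 and 0.233 TPM in male *Dek* cKO libraries. With 3 libraries listed at 0, no fold change is given for *Brca2*.

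*Msh6*, whose protein recognises mismatched bases, was the 1 gene of mismatch repair. It had 8.26 TPM at the lowest, 8.82 TPM at the median and 8.97 TPM at the highest in WT libraries (n = 6), and 7.03, 8.13 and 9.51 TPM in *Dek* cKO libraries (n = 6). The WT values lay within the span of the *Dek* cKO values, which reached from female replicate 3 to male replicate 1. *Msh6* had a log2 fold change of -0.07 (95% interval -0.24 to 0.09, limma adjusted p = 0.933).

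In nucleotide excision repair, 4 of 5 log2 fold changes lay above 0 over both sexes, with a median of 0.03, beside 10156 of 18197 genes tested. The tally above 0 was 2 of 6 in end joining, 7 of 13 in base excision repair and 3 of 7 in homologous recombination. It was 0 of 1 in mismatch repair and 1 of 5 in damage signalling. *Ercc2* and *Ercc3* encode the helicases that open DNA around a lesion, and *Ercc2* was the most abundant gene of the pathway. *Ercc2* had 27.8 TPM at the lowest, 33.1 TPM at the median and 38.9 TPM at the highest in WT libraries (n = 6), and 27.5, 34.3 and 39.3 TPM in *Dek* cKO libraries (n = 6). Its ranges coincided, with a log2 fold change of 0.03 (95% interval -0.17 to 0.24, limma adjusted p = 0.983). Without male WT replicate 3 the estimate was -0.01. *Ercc3* lay between 19.2 and 22.4 TPM and had the narrowest interval of the 37 genes, from -0.10 to 0.10. *Xpc*, which finds lesions and was the least abundant, had 9.52, 10.5 and 11.1 TPM at the lowest, median and highest in WT and 9.18, 10.6 and 11.3 TPM in *Dek* cKO libraries. These groups overlapped throughout, with 0.03 (95% interval -0.12 to 0.17). *Ercc1*, a subunit of the nuclease that cuts beside the lesion, had 25.8, 28.0 and 33.9 TPM at the lowest, median and highest in WT and 27.2, 30.4 and 33.6 TPM in *Dek* cKO libraries, which overlapped, with 0.09 (95% interval -0.07 to 0.25). Against the male WT libraries alone, at 28.4, 25.8 and 26.3 TPM, the 6 *Dek* cKO libraries gave 0.18 (95% interval 0.01 to 0.36), an unadjusted p of 0.0397 and a limma adjusted p of 0.944. In that comparison female *Dek* cKO replicate 2 was the 1 *Dek* cKO library within the WT range. *Xpa*, which verifies the lesion, had a log2 fold change of 0.13 (95% interval -0.03 to 0.28) over both sexes.

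Damage signalling includes the kinases of *Atm* and *Atr* and the proteins that gather on chromatin beside a break. *Trp53bp1*, which steers breaks towards end joining, was the most abundant repair gene. It had 79.2 TPM at the lowest, 85.7 TPM at the median and 89.6 TPM at the highest in WT libraries (n = 6), and 75.4, 85.1 and 91.5 TPM in *Dek* cKO libraries (n = 6). The *Dek* cKO values enclosed the WT values, and the log2 fold change was -0.01 (95% interval -0.12 to 0.11, limma adjusted p = 0.995). *H2afx*, the histone variant phosphorylated beside breaks, lay between 25.7 and 32.0 TPM with -0.05 (95% interval -0.18 to 0.09), and *Mdc1*, which binds that mark, between 6.18 and 9.31 TPM with -0.11 (95% interval -0.34 to 0.12).

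*Atm*, singled out after its values were seen, had 8.54, 7.99 and 9.66 TPM in female WT, 13.3, 9.37 and 8.47 TPM in male WT, 13.1, 4.78 and 12.1 TPM in female *Dek* cKO and 9.82, 12.9 and 10.8 TPM in male *Dek* cKO libraries. Female *Dek* cKO replicate 2 was the lowest of the 12, while the other 5 *Dek* cKO values exceeded 5 of the 6 WT values. The log2 fold change was 0.09 (95% interval -0.38 to 0.57, limma adjusted p = 0.979), and 0.31 without female *Dek* cKO replicate 2. *Atr*, the least abundant of the signalling genes, had 3.42, 3.63 and 4.03 TPM at the lowest, median and highest in WT and 2.88, 3.69 and 4.45 TPM in *Dek* cKO libraries. The WT values lay within the *Dek* cKO span, with a log2 fold change of -0.04 (95% interval -0.29 to 0.20).

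Within each sex, 3 *Dek* cKO libraries were set against 3 WT libraries in a fit of all 4 groups. In females 1 of 37 repair genes stood at an unadjusted p under 0.05, beside 5.79% of all genes tested, and in males 0 did, beside 5.45%. No repair gene was called by limma in either sex, where 0.0165% of all genes were called in females and 0.0165% in males. The gene in females was *Xpa*, at 21.3, 21.8 and 24.9 TPM in WT and 25.5, 27.3 and 25.3 TPM in *Dek* cKO libraries. The log2 fold change of *Xpa* in females was 0.20 (95% interval 0.0021 to 0.40), with an unadjusted p of 0.0480 and a limma adjusted p of 0.852. Genotype and name prefix cannot be told apart in females. Against the male WT libraries alone, the 6 *Dek* cKO libraries gave *Xpa* 0.16 (95% interval -0.05 to 0.36, limma unadjusted p = 0.115). Males had 22.8, 23.5 and 19.2 TPM in WT and 22.8, 23.0 and 22.1 TPM in *Dek* cKO libraries, a log2 fold change of 0.06 (95% interval -0.14 to 0.25), and the interaction was -0.14 (95% interval -0.42 to 0.14).

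The count of 1 in females was 0 without female WT replicate 1, male WT replicate 1, female *Dek* cKO replicate 1, female *Dek* cKO replicate 3, male *Dek* cKO replicate 1 or male *Dek* cKO replicate 3. It was 2 without female WT replicate 2 (*Tdp1* and *Rad52*) and 3 without female *Dek* cKO replicate 2 (*Atm*, *Xrcc4* and *Parp1*), and without male *Dek* cKO replicate 2 the 1 gene was *Parp1*. *Xpa* was in none of these sets. The count of 0 in males became 1 without female WT replicate 1 (*Tdp1*), male *Dek* cKO replicate 1 (*Apex1*) or male *Dek* cKO replicate 3 (*Xrcc6*). The interaction, which asks whether the genotype difference differs between the sexes, had 0 repair genes at an unadjusted p under 0.05, beside 4.23% of all genes tested, and 0 called, as were 0% of all genes. That count was 1 without female WT replicate 2, female WT replicate 3, male *Dek* cKO replicate 1, male *Dek* cKO replicate 2 or male *Dek* cKO replicate 3, and 2 without female *Dek* cKO replicate 2. *Xrcc4* was among these genes without female WT replicate 3, female *Dek* cKO replicate 2 or male *Dek* cKO replicate 3. The lowest interaction p was that of *Xrcc4*, with a log2 fold change of 0.34 in females, -0.18 in males and an interaction of -0.52 (95% interval -1.10 to 0.05, limma adjusted p = 0.966). Its level in female WT replicate 2 was 7.41 TPM, against 11.6 to 13.4 TPM in the other 5 WT libraries. *Atr* followed with -0.24, 0.15 and 0.39 (95% interval -0.06 to 0.84, limma adjusted p = 0.966).

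Of a wider list of 108 further repair genes 0 were called, beside 0.148% of all genes tested, and a count of 0 is near that share. At an unadjusted p under 0.05 stood 5 of them, or 4.63%, beside 6.64% of all genes tested. All 5 were on the higher side, where 4.84% of all genes tested stood: *Paxx*, *Mpg*, *Rad51b*, *Gtf2h3* and *Fanca*. Of these *Paxx*, *Mpg* and *Gtf2h3* had fold changes under 1.2 and are named after their values were seen. The count in the wider list was 8 without female WT replicate 3 (6 higher and 2 lower), beside 6.15% of all genes tested. It was 9 without female *Dek* cKO replicate 3, all higher, beside 6.92%. It was 8 without male *Dek* cKO replicate 2 (6 higher and 2 lower), beside 7.87%. With median ratio rescaling 5 were higher and 2 lower, and with quantile normalization 4 were higher and 2 lower. In females 3 were higher and 2 lower (4.63%, beside 5.79% of all genes tested), and in males 3 were higher and 3 lower (5.56%, beside 5.45%). *Rad51b*, a paralogue of the recombinase, had 0.0392 TPM at the lowest, 0.136 TPM at the median and 0.370 TPM at the highest in WT libraries, and 0.194, 0.331 and 0.508 TPM in *Dek* cKO libraries (n = 6 each). The groups overlapped, with a log2 fold change of 0.89 (95% interval 0.12 to 1.67, limma adjusted p = 0.674). At such low levels the value depends on the constant added, and it was 0.38 with 0.5 TPM and 0.22 with 1 TPM added in place of 0.1 TPM. *Fanca*, of the Fanconi anaemia pathway, had 4.39, 5.62 and 7.15 TPM in WT and 5.70, 7.52 and 9.43 TPM in *Dek* cKO libraries, again overlapping, with 0.37 (95% interval 0.05 to 0.70, limma adjusted p = 0.673).

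Of 10 targets of p53 that DNA damage induces, 0 were called by limma and 1, *Gadd45a*, stood at an unadjusted p under 0.05, beside 0.148% and 6.64% of all genes tested. It had 6.87 TPM at the lowest, 8.56 TPM at the median and 9.0004 TPM at the highest in WT libraries (n = 6), and 8.68, 10.6 and 18.2 TPM in *Dek* cKO libraries (n = 6). Only the lowest *Dek* cKO value, in female replicate 2, lay within the WT range, and the highest was in male replicate 3. Its log2 fold change was 0.45 (95% interval 0.11 to 0.80), with an unadjusted p of 0.0141 and a limma adjusted p of 0.596. Among libraries whose names begin with CMV, of which the WT libraries are all male, it was 0.47 (limma unadjusted p = 0.0646). Within males, *Zmat3* was the 1 target at an unadjusted p under 0.05, beside 5.45% of all genes tested, with a log2 fold change of -0.21 (95% interval -0.43 to -0.0011, limma adjusted p = 0.880).

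Male *Dek* cKO replicate 3 held the highest value of 12 of the 37 repair genes, more than any other library. The same count over all genes tested was not made. Correlations of its log2 levels with other libraries, over all genes tested, lay between 0.942 and 0.959. Those of female WT replicate 1 lay between 0.942 and 0.954, and pairs that held neither library between 0.959 and 0.972. The 5 astrocyte markers of male *Dek* cKO replicate 3 summed to 1700 TPM, against 652 to 960 TPM in the other 11 libraries. *Gfap* alone made up 1267 TPM of that sum. Within males, log2 fold changes lay above 0 for 3 of these 5 markers and below 0 for 2. Female WT replicate 1, which had the highest *Ung*, also had the highest sum of 14 proliferation markers, 53.9 TPM against 39.3 to 48.9 TPM elsewhere. Female *Dek* cKO replicate 3, next in astrocyte markers at 960 TPM, held the highest value of 3 repair genes and the lowest of 5. Male *Dek* cKO replicate 3, next in proliferation markers at 48.9 TPM, had 1.28 TPM of *Ung*. The sum of 6 choroid plexus markers lay between 45.8 and 4458 TPM, the highest in male *Dek* cKO replicate 1, which had the lowest end joining sum. Next were female *Dek* cKO replicate 2 at 3439 TPM and male WT replicate 3 at 3049 TPM, with end joining sums of 71.8 and 73.0 TPM. Markers of meninges lay between 45.6 and 227 TPM and those of oligodendrocytes between 2215 and 4629 TPM. Within females, 2 of 4 thalamus markers were higher in *Dek* cKO at a limma unadjusted p under 0.05, beside 5.79% of all genes tested. Lower were 1 of 3 blood markers and 1 of 5 of CA1 and CA3 pyramidal neurons, and no other marker set held such a gene. The cell types these markers stand for may differ between libraries, and their part was not tested.

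Many repair genes start back to back with another gene. After the values were seen, each repair gene was searched for a listed gene that starts within 1000 bases on the opposite strand. Such a neighbour was found for 12 of 37 repair genes (32.4%), beside 2253 of 17931 named genes tested (12.6%). Of the 12 neighbours 10 were tested, and 0 stood at an unadjusted p under 0.05 in limma, beside 6.64% of all genes tested. A count of 0 among 10 genes is near that share. *Brca1* and *Nbr1*, an autophagy receptor, start 194 bases apart, yet *Brca1* had a mean of 0.353 TPM and *Nbr1* one of 109 TPM. *Tdp1* starts 78 bases from *Efcab11*, with 16.2 TPM against 0.165 TPM, and *Efcab11* had a log2 fold change of -0.46 (95% interval -1.08 to 0.17). *Apex1* starts 75 bases from *Osgep*, which encodes a tRNA modifying enzyme, with 56.1 TPM against 31.7 TPM.

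In 5 promoter windows both starts of such a pair were found. Of these, that of *Brca1* is shown for the largest distance in level between the partners, that of *Tdp1* as the repair gene with the lowest unadjusted p over both sexes, and that of *Apex1* as the most abundant repair gene with such a neighbour. Each is 300 bases from build GRCm38.p6 of RefSeq, written along the strand of the repair gene from 250 bases before the start that RefSeq gives it. Capitals mark the stretch between the GENCODE starts of the partners, and for *Tdp1* and *Apex1* the GENCODE start differs from that of RefSeq. That of *Brca1* is chr11:101551906-101552205 on the minus strand, that of *Tdp1* chr12:99884268-99884567 on the plus strand and that of *Apex1* chr14:50924699-50924998 on the plus strand.
Brca1: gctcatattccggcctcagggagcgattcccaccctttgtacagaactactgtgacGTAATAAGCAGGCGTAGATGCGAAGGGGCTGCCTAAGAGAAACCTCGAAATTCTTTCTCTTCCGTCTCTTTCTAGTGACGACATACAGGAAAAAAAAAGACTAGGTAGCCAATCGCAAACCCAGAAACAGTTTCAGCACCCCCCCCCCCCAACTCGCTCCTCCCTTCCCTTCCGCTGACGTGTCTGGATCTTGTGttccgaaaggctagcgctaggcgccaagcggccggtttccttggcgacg
Tdp1: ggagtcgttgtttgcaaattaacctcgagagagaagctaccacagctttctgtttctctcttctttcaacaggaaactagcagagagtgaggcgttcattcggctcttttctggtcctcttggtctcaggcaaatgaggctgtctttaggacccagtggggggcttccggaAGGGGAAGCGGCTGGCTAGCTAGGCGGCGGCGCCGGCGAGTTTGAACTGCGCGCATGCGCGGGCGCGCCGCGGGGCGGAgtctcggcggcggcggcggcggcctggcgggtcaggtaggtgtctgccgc
Apex1: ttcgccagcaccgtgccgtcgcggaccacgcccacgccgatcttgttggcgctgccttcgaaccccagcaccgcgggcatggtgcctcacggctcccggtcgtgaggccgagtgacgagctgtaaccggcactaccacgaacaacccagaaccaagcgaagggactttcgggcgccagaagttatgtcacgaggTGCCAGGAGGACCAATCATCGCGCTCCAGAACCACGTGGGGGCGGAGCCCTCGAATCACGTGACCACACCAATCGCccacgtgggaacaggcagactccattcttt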

How the data were processed

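The values are TPM from the table deposited by the authors, 26409 genes in 12 libraries, used without rescaling. The submitters' processing notes name kallisto and mm10. The paper's methods name poly-A selected stranded libraries, Trim Galore, SortMeRNA, STAR on GRCm38/mm10 and Salmon. Which of these made the table is not given in the sources used here. GENCODE M21 named 25262 genes, and 1147 identifiers had no name.

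The 18197 genes that averaged 0.1 TPM or more were tested as log2 of TPM + 0.1 with limma 3.58.1 (trended prior variance) in R 4.3.3, with Benjamini-Hochberg adjustment over all genes tested. Unadjusted p values are from the same limma fits. Calls needed an adjusted p under 0.05 and a change of more than 1.2-fold. The fit over both sexes had no covariate, and a fit of 4 groups gave the sexes and the interaction. The fits were tested on simulated data. Python 3.11.15, numpy 2.4.6, pandas 2.3.3 and matplotlib 3.10.9 made the tables and plots.

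Members and lists were chosen with earlier results of these data known. By rule, each member is accounted for, and values are given for members at an unadjusted p under 0.05 in any comparison or with separate genotypes and for the most and least abundant of each pathway. From the wider list the rule names genes at an unadjusted p under 0.05 with at least 1.2-fold, and among p53 targets those at an unadjusted p under 0.05. Other genes were singled out after their values were seen, as stated where they appear.

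A library went against its sex label if all 4 Y-linked genes were over 50% of the lowest male WT value in a female library, or under 10% of it in a male library. Male *Dek* cKO replicate 1 missed this at 1 of 4 genes and was still left out together with female *Dek* cKO replicate 3 in that alternative. The other alternatives were other added constants and filters, median ratio and quantile scaling, each library left out, a replicate block, sex as a covariate, no trend, libraries with the CMV prefix alone and fits within 1 sex. The paper's methods state 20000000 paired-end reads of 100 bases per library, and the TPM values do not show the depth each library reached. Promoter sequences are from RefSeq GRCm38.p6, in which 29 of 37 members were matched.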

Additional observations from a re-analysis of the deposited data

Results flagged for a closer look

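In each genotype, the library at either end of the 6 values was marked where its gap to the next value was large against the whole range, by a rule that marks about 1 in 20 groups by chance. Of 82 groups checked, 10 were marked. *Xrcc4* in female WT replicate 2 was the lowest WT value at 7.41 TPM, with the other 5 between 11.6 and 13.4 TPM. *Prkdc* in male WT replicate 2 was the highest WT value at 10.02 TPM, with the other 5 between 8.57 and 9.05 TPM. *Nhej1* in female *Dek* cKO replicate 1 was the lowest *Dek* cKO value at 2.04 TPM, with the other 5 between 2.90 and 3.40 TPM. *Neil1* in male *Dek* cKO replicate 1 was the highest *Dek* cKO value at 1.70 TPM, with the other 5 at 0. *Fen1* in male *Dek* cKO replicate 1 was the lowest *Dek* cKO value at 7.31 TPM, with the other 5 between 8.84 and 9.50 TPM. *Brca1* in male WT replicate 3 was the highest WT value at 0.489 TPM, with the other 5 between 0.244 and 0.322 TPM. *Brca2* in female WT replicate 3 was the highest WT value at 0.804 TPM, with the other 5 between 0 and 0.261 TPM. *Brca2* in female *Dek* cKO replicate 3 was the highest *Dek* cKO value at 0.716 TPM, with the other 5 between 0 and 0.233 TPM. *Ercc3* in male WT replicate 1 was the lowest WT value at 19.2 TPM, with the other 5 between 21.1 and 22.1 TPM. *Atm* in male WT replicate 1 was the highest WT value at 13.3 TPM, with the other 5 between 7.99 and 9.66 TPM.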

How the results depend on the processing

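Over both sexes, no repair gene was called under any alternative, where 3 to 36 of all genes tested were called. None had separate genotypes in the alternatives where this was counted, beside 0.676% of all genes tested in the main comparison. Counts of 0 among 37 genes are near these shares. The median log2 fold change of the repair genes stayed between -0.03 and 0.02. The count with an interval inside 1.5-fold stayed between 30 and 35, and 18 of 37 genes kept 1 sign in all 23 alternatives. Among those that did not, *Xrcc4* went from 0.08 to -0.09, *Pcna* from 0.04 to -0.02 and *Mdc1* from -0.11 to 0.01 with CMV-named libraries alone, and *Rbbp8* from -0.01 to 0.31 without female *Dek* cKO replicate 3 and male *Dek* cKO replicate 1 (the Y-linked pair). The count at an unadjusted p under 0.05 over both sexes was 3. It was 4 with median ratio rescaling and 4 with quantile normalization, where *Parp1* joined, and 1 with sex as a covariate. It was 2 with the Y-linked pair left out (*Lig3* and *Prkdc*, without *Tdp1* and *Xrcc6*), and ranged from 0 to 3 with 1 library left out. In the wider list it was 5, against 8 with the Y-linked pair left out and 4 to 9 with 1 library left out. In females it was 1, against 2 with median ratio rescaling and 2 with quantile normalization (in each *Parp1* and *Msh6*, without *Xpa*), 0 with the Y-linked pair left out, 0 without the trend in prior variance and 0 to 3 with 1 library left out. In males it was 0, against 1 with the Y-linked pair left out, 1 when fitted on the 6 libraries of that sex and 0 to 1 with 1 library left out. For the interaction it was 0, against 1 with the Y-linked pair left out, 1 without the trend and 0 to 2 with 1 library left out. The cause was not tested. With the replicate number as a block, the count was 2 over both sexes (*Tdp1* and *Xrcc6*, without *Prkdc*), 1 in females (*Xrcc4* in place of *Xpa*) and 0 in males. With that block 0 repair genes were called over both sexes, beside 3 of all genes tested. The numbers do not pair the libraries: over 6 pairs the correlation of deviations lay between -0.0385 and 0.0445, 0 exceeded 0.1 and 2 of 6 were highest with their own number. With 3 libraries in a group and TPM without counts, small differences in rare genes such as *Brca2* cannot be resolved, and in females genotype and name prefix cannot be told apart.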
